A study of Mus musculus with 2 samples.

Results

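The genes studied are 10 genes of glycolysis and its regulation, *Hk1*, *Hk2*, *Pfkfb3*, *Aldoa*, *Tpi1*, *Pgk1*, *Pgam1*, *Eno1*, *Pkm* and *Ldha*, in endothelial cells of the developing mouse retina. They were listed by symbol with earlier results of these data known, although the rule itself used no measured value, and each was matched through its Ensembl identifier to its row in the count tables of both libraries. All 10 had a row in both, out of 19813 genes with a row in both libraries (22687 genes at P6 and 21736 at P15). The cells came from wild-type C57BL/6 mice at postnatal day 6 (P6) and postnatal day 15 (P15), were sorted as CD31+CD45- and were sequenced on a droplet platform, with 1 library for each age. CD31 marks endothelial cells and CD45 marks leukocytes. Neither age carried a transgene or received a treatment, and the number of mice behind each library was not given in the sources used here. With 1 library for each age, an effect of age cannot be told apart from an effect of the library, and no test across samples was possible.

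Glycolysis splits glucose into pyruvate in the cytosol and yields ATP without oxygen. Endothelial cells are known to draw much of their ATP from it, also where oxygen is at hand, and to speed it up when they sprout into new vessels. Hexokinases (*Hk1*, *Hk2*) trap glucose in the cell, and *Pfkfb3* makes the sugar phosphate that activates phosphofructokinase. Aldolase A (*Aldoa*) and triosephosphate isomerase (*Tpi1*) carry out the splitting of the sugar. Phosphoglycerate kinase (*Pgk1*), phosphoglycerate mutase (*Pgam1*), enolase 1 (*Eno1*) and pyruvate kinase (*Pkm*) form the lower, energy-yielding part of the pathway, and lactate dehydrogenase A (*Ldha*) turns pyruvate into lactate.

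Many promoters of these genes are known to hold the core of the hypoxia response element, the letters ACGTG or GCGTG on either strand (CACGT or CACGC as read on the opposite strand), which the hypoxia-inducible factors (HIF) bind. The 250 bases before each RefSeq start site (GRCm38.p6) were searched. These letters were in at least 1 window of 9 of the 10 genes, against 41.5% of all 27025 genes. Of their 18 windows, 14 held them (77.8%), against 38.6% of all 32851 windows of the same length. A gene with more windows has more chances of a match, and the windows compared were not matched for base composition or exon overlap. Windows of a gene can overlap: 2 *Aldoa* windows hold the same match and 2 *Eno1* windows the same 2 matches. A set of 4 windows in which the GENCODE M21 annotation places no exon is printed. They set genes with a P15 to P6 ratio above 1 (*Hk1*, *Aldoa* and *Ldha*) beside *Pgk1*, whose ratio was below 1. The windows lie before start sites at chr10:62379909-62380158 (*Hk1*, minus strand), chr7:126799255-126799504 (*Aldoa*, minus strand), chrX:106186850-106187099 (*Pgk1*, plus strand) and chr7:46845554-46845803 (*Ldha*, plus strand). Capitals mark the matched letters, and overlapping matches on both strands run together as CACGTG.
Hk1: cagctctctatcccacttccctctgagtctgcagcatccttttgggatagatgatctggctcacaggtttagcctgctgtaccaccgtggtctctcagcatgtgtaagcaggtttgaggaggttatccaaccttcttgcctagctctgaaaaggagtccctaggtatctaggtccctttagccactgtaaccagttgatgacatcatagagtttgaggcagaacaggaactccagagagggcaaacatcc
Aldoa: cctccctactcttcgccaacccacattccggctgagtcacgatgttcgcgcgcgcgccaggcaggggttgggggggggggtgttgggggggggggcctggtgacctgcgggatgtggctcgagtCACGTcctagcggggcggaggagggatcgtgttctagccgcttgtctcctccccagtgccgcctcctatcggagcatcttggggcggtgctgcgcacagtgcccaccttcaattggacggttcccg
Pgk1: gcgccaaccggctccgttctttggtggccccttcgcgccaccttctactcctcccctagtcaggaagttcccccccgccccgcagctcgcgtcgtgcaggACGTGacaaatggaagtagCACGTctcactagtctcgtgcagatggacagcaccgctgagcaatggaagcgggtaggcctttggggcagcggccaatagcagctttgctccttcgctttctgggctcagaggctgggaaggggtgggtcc
Ldha: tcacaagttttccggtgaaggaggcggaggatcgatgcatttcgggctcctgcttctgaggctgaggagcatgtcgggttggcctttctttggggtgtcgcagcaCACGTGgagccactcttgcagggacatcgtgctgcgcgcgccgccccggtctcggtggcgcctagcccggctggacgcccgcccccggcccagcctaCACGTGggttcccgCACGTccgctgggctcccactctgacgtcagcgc
The *Ldha* window held 5 matches, at 145, 144, 48, 47 and 34 bases before the start. The *Pgk1* window held 2 matches, at 150 and 131 bases, the *Aldoa* window 1 match at 126 bases, and the printed *Hk1* window none, while a second *Hk1* window, which overlaps an exon and is not printed, held 3. A match of letters is a description and not a binding site, and no match was compared with the expression values by a test.

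The P6 library held 1984 cell barcodes and the P15 library 2141, of which 1424 and 1644 passed a filter read from the study's exclusion criteria (genes per cell, mitochondrial share and the marker genes *Hbb-bt*, *Neurod1* and *Cd63*). Among the cells with a cluster label, 1399 of 1560 at P6 and 409 of 438 at P15 passed, so this filter was stricter than the one behind the labels. The cells that passed had a median of 4986 unique molecular identifiers (UMIs, each standing for 1 captured transcript) at P6 and 4214 at P15. All 10 endothelial markers of a fixed list were detected at both ages (summed level 9694 UMIs per 1000000 UMIs of the cells, or CPM, at P6 and 15172 CPM at P15), whereas the immune list summed to 2.22 and 5.97. The mural list stood at 11.4 CPM at P6 and 308 at P15, with 1 of its 8 genes at 0 at P6 (*Cspg4*) and none at P15, and the glial list at 369 and 1228, of which *Glul* gave 366 and 1161. The dissociation response list stood at 455 and 1986, the photoreceptor list at 29.6 and 113, the blood list at 22.6 and 173, the retinal neuron list at 57.7 and 25.6 and the list of dividing cells at 498 and 59.0. The part of these lists in the differences between ages was not tested. The median share of UMIs from ribosomal protein genes was 18.0% at P6 and 9.87% at P15. The libraries shared 7 barcodes, of which 2 passed the filter in both. The study's cluster labels were at hand for 1560 P6 cells and for the first 438 P15 cells. Labelled P15 cells stood slightly below the unlabelled ones for these genes, at 3343 and 3448 CPM in sum (ratio 0.969, 0.942 to 0.998), and the interval included 1 for each of the 10 genes. All intervals are 95% intervals from the counts and cover counting error only.

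The 10 genes together made up 2936 CPM at P6 (2898 to 2975) and 3422 at P15 (3380 to 3465), a P15 to P6 ratio of 1.17 (1.15 to 1.19). The median ratio of all 7455 genes with at least 200 UMIs was 1.09, a shift of 0.13 on the log2 scale, and relative to that shift (size factors from the median of ratios) the sum stood at 1.07. The counting interval of the ratio lay above 1 for 5 genes (*Hk1*, *Pfkfb3*, *Aldoa*, *Eno1* and *Ldha*), below 1 for 2 (*Tpi1* and *Pgk1*) and included 1 for 3 (*Pkm*, *Hk2* and *Pgam1*). The share of all genes on each side of 1 was not counted, and the *Hk1* interval also held the median ratio of all genes. Of the 8 genes with at least 200 UMIs, 1 was at least 1.5-fold higher at P15 (*Pfkfb3*), beside 16.6% of all genes tested, and 0 were at least 1.5-fold lower, beside 9.68% of all genes. The share of the glycolysis genes past the limit was thus near that of all genes. When every barcode was counted without the filter, the direction of the sum turned, with 3639 CPM at P6 and 3488 at P15 (ratio 0.959). Every barcode includes those with a *Neurod1* UMI, which the study removed, 98 at P6 (8029 CPM) and 17 at P15 (6778 CPM). It also includes those with a *Cd63* UMI, 220 at P6 (5769 CPM) and 193 at P15 (3751 CPM). Barcodes over 3500 genes were 329 at P6 (4531 CPM) and 199 at P15 (3637 CPM). A barcode can be in more than 1 of these groups, and their part in the turn was not tested.

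**Figure D1:**
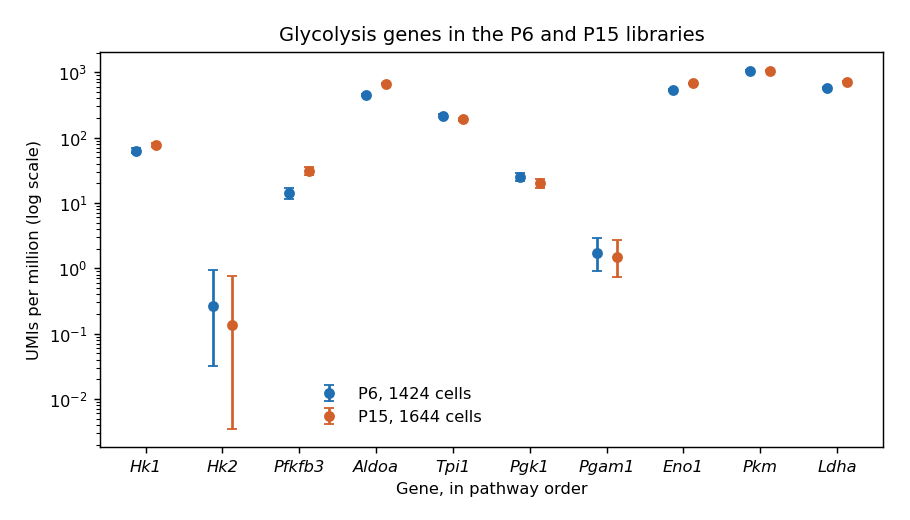
CPM (log axis) of the 10 glycolysis genes, in pathway order, in the P6 library (blue, 1424 cells) and the P15 library (orange, 1644 cells), with bars for exact Poisson 95% intervals. Pfkfb3, Aldoa, Eno1 and Ldha sit higher at P15, Tpi1 and Pgk1 sit lower, and Hk2 and Pgam1 lie near the bottom with wide intervals.

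At the entry of the pathway, *Hk1* (chr10:62268855-62379908, GRCm38) stood at 63.3 CPM at P6 (57.8 to 69.2) and 77.2 at P15 (71.0 to 83.8), a ratio of 1.22 (1.08 to 1.38). *Hk2*, the other hexokinase of the list, had 2 UMIs at P6 and 1 at P15 in all cells that passed. Both are under the level of 3 counts that a count of 0 would allow (0.392 and 0.407 CPM), so no fold is given.

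*Pfkfb3*, whose enzyme sets the pace at the phosphofructokinase step, stood at 14.1 CPM at P6 (11.6 to 17.1) and 30.7 at P15 (26.8 to 34.9). Its ratio of 2.17 (1.72 to 2.76) was the highest of the 8 genes with at least 200 UMIs, and it stayed between 1.84 and 2.26 under the 8 other ways of choosing or scaling the cells. Among the bifunctional enzymes *Pfkfb1* to *Pfkfb4*, *Pfkfb3* supplied 72.5% of UMIs at P6 (64.6 to 79.5%) and 90.8% at P15 (86.5 to 94.1%). *Pfkfb1* moved the other way, from 21 UMIs (14.1% of the group) to 5 UMIs (2.01%). After each cell was thinned to 2000 UMIs, 2.91% of P6 cells and 5.37% of P15 cells still held a *Pfkfb3* UMI.

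At the splitting of the sugar, *Aldoa* stood at 452 CPM at P6 (437 to 467) and 667 at P15 (649 to 686), a ratio of 1.48 (1.41 to 1.54) that lay just under the 1.5-fold limit. Its share of cells with a UMI after thinning was 55.1% at P6 and 71.1% at P15. *Tpi1*, which interconverts the products of that split, went the other way, from 215 (204 to 225) to 191 CPM (181 to 201; ratio 0.889, 0.827 to 0.955). Its thinned shares of 33.3% and 31.3% had overlapping intervals.

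In the lower part of the pathway, *Pgk1* stood at 25.1 CPM at P6 (21.7 to 28.9) and 19.8 at P15 (16.7 to 23.3), a ratio of 0.789 (0.632 to 0.984). Among cells with 3000 to 6000 UMIs its ratio was 0.989. *Pgam1* was counted by 13 UMIs at P6 and 11 at P15, too few for a fold above the minimum of 200, although the last 500 bases of its longest coding transcript share no run of 31 bases with another gene of the annotation. *Eno1* stood at 529 (513 to 546) and 671 CPM (652 to 690; ratio 1.27, 1.22 to 1.32). Of the last 500 bases of *Eno1*, 52.7% of all runs of 91 bases also occur in *Eno1b* or the processed pseudogene *Gm4735*, so its counts are uncertain. *Eno1b* itself had a ratio of 1.47 (1.34 to 1.61). Since UMIs of the shared runs could fall to either row, these ratios cannot show whether both copies were higher at P15.

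*Pkm*, which makes pyruvate and whose M1 and M2 splice forms are counted as 1 gene here, stood at 1057 CPM at P6 (1034 to 1081) and 1050 at P15 (1027 to 1074). Its ratio of 0.993 (0.962 to 1.02) was the nearest to 1 of the 8 genes and lay below the median of all genes. *Pkm* supplied 36.0% of the UMIs of the 10 genes at P6 (35.4 to 36.6%) and 30.7% at P15 (30.1 to 31.3%), while the share of *Aldoa* was 15.4% (14.9 to 15.9%) and 19.5% (19.0 to 19.99%). *Ldha* stood at 579 CPM at P6 (562 to 596) and 714 at P15 (695 to 734), a ratio of 1.23 (1.18 to 1.28) that turned to 0.888 when every barcode was counted. In P6 cells *Ldha* supplied 93.9% of the UMIs of *Ldha* and *Ldhb* (93.2 to 94.6%), and in P15 cells it supplied 94.4% (93.8 to 95.01%), so the intervals overlap.

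Other genes of glycolysis and its branches came from a fixed list of 34, and the 18 with at least 200 UMIs had ratios from 0.494 to 12.5. Of these 18, 6 were at least 1.5-fold higher at P15, beside 16.6% of all genes, and 2 were at least 1.5-fold lower, beside 9.68%, and their median ratio was 1.15. The monocarboxylate transporter *Slc16a1*, which moves lactate and pyruvate across the membrane, stood at 85.0 CPM at P6 and 1063 at P15 (ratio 12.5, 11.5 to 13.6). The glucose transporter *Slc2a1* stood at 1011 and 1863 (ratio 1.84, 1.79 to 1.89). Both are known as transporters of blood vessels that hold a barrier.

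Within the pathway itself the phosphofructokinase subunit *Pfkl* had a ratio of 2.38 (2.17 to 2.60), and its share among *Pfkl*, *Pfkm* and *Pfkp* went from 48.5% of P6 UMIs (45.8 to 51.1%) to 63.8% of P15 UMIs (61.8 to 65.7%). *Bpgm*, which diverts an intermediate to bisphosphoglycerate, had a ratio of 2.10 (1.90 to 2.31). *Gapdh*, the enzyme between *Tpi1* and *Pgk1*, was the lowest of the 18, at 1037 CPM at P6 and 512 at P15 (ratio 0.494, 0.475 to 0.513). The pentose phosphate genes *Tkt* and *Pgd*, which serve nucleotide and NADPH supply, stood at ratios of 0.580 (0.526 to 0.638) and 0.672 (0.574 to 0.787). *Aldoc*, the aldolase of neural tissue and glia, had 5 UMIs at P6 and 150 at P15, which was 0.145% and 2.96% of aldolase UMIs, and the glial list above was also higher at P15. The part of glial RNA in this difference was not tested.

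**Figure D2:**
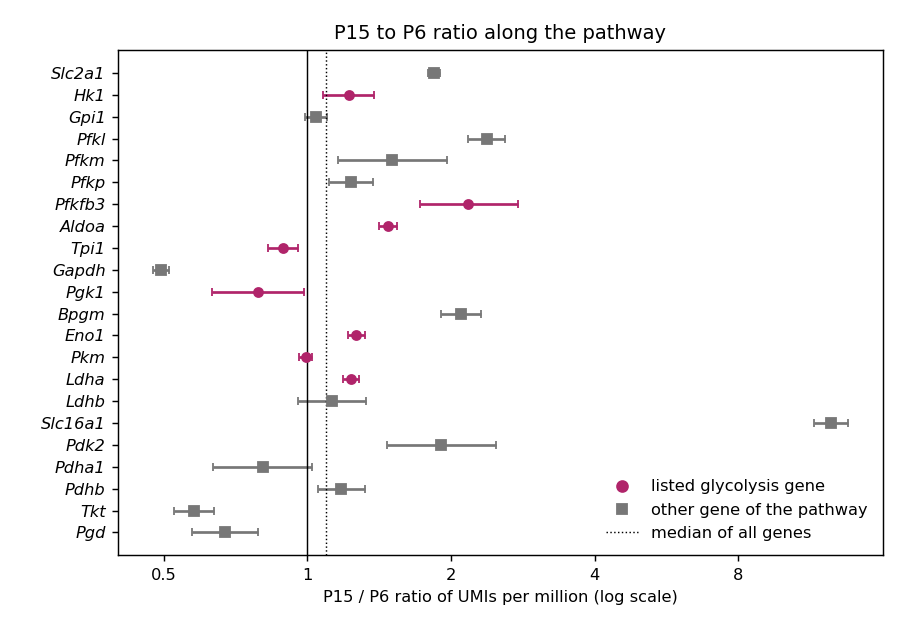
P15 to P6 ratio of CPM (log axis) for the glycolysis genes (circles) and other genes of the pathway and its branches (squares) with at least 200 UMIs, with 95% conditional binomial intervals. The solid line marks 1 and the dotted line the median of all genes at 1.09. Slc16a1 lies far to the right at 12.5 and Gapdh to the left at 0.494, and the circles lie between 0.789 and 2.17.

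HIF targets outside glycolysis, a fixed list of 19, were set beside the glycolysis genes, since the same factors are known to drive genes of both. A part of HIF in the differences between ages was not tested. Of the 13 with at least 200 UMIs, 7 were at least 1.5-fold higher at P15, beside 16.6% of all genes, and 1 was at least 1.5-fold lower, beside 9.68%, with a median ratio of 1.52 against 1.23 for the glycolysis genes. *Adm*, which encodes the vessel peptide adrenomedullin, had a ratio of 5.37 (4.94 to 5.84), and *Ankrd37* of 5.87 (5.33 to 6.48). *Mif* was the gene below, at 0.593 (0.557 to 0.630). The summed nuclear genes of oxidative phosphorylation had a ratio of 0.885 (0.879 to 0.890), so that for each 100 of their UMIs the 10 glycolysis genes had 10.1 UMIs at P6 and 13.3 at P15.

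Among the 9 clusters of P6 cells that the study named, the summed level of the 10 genes was highest in Primitive and lowest in Arterial. Primitive cells (155) stood at 4145 CPM, followed by Tip cells (170), which lead vessel sprouts, at 3594 and by dividing Proliferative cells (198) at 3425. Venous (42 cells) and Stalk (230 cells) stood at 2914 and 2910, Cap-Venous (414 cells) at 2761 and Capillary (149 cells) at 2578. Cap-Arterial (162 cells) and Arterial (40 cells) closed the order at 2124 and 2115. Primitive lay 1.96-fold above Arterial (1.77 to 2.17), and of the 8 pairs of neighbours in this order, the interval held 1 for Venous with Stalk and for Cap-Arterial with Arterial. The clusters were made from the expression of these same cells, so these differences are descriptions.

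**Figure D3:**
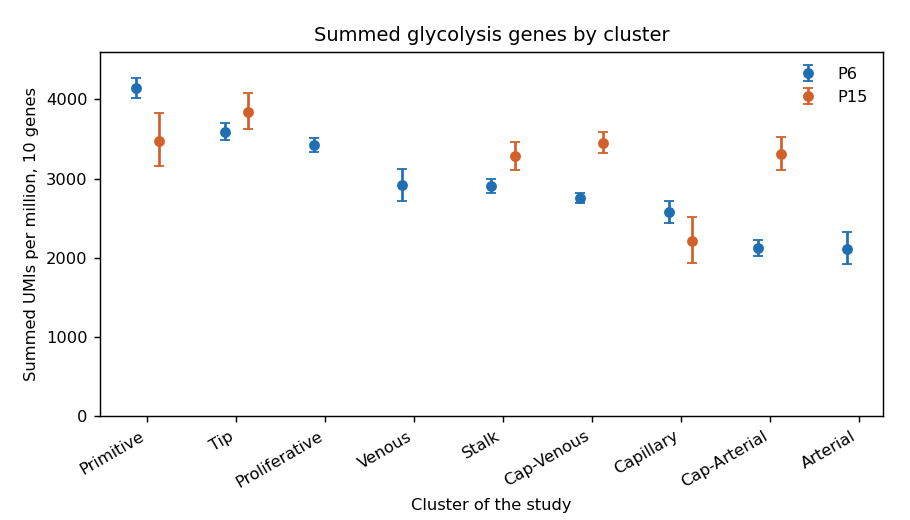
Summed CPM of the 10 glycolysis genes in each cluster with at least 20 labelled cells, at P6 (blue) and P15 (orange), with exact Poisson 95% intervals. At P6 the sum goes from 4145 in Primitive to 2115 in Arterial. At P15 it spans 3281 to 3846 in 5 clusters and is 2213 in Capillary.

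The Primitive cluster was the highest for 6 of the 7 genes with at least 200 UMIs in labelled P6 cells (*Aldoa*, *Tpi1*, *Pgk1*, *Eno1*, *Pkm* and *Ldha*) and the lowest for *Hk1*. For *Tpi1*, *Pgk1* and *Pkm* the interval of the ratio between Primitive and the next cluster held 1. The share of all genes that were highest in Primitive was not counted. Against the other labelled P6 cells, its sum had a ratio of 1.41 (1.36 to 1.46), while the median ratio of all 5871 genes was 0.820, and relative to that median the sum stood at 1.72. Of the 7 genes, 2 were at least 1.5-fold higher there (*Tpi1* and *Pgk1*), beside 6.06% of all genes. *Tpi1* stood at 331 CPM in Primitive cells against 213 elsewhere (ratio 1.56, 1.38 to 1.76). *Pgk1* stood at 44.6 against 26.4 (ratio 1.69, 1.18 to 2.35). *Hk1* went the other way, at 44.6 against 64.5 (ratio 0.692, 0.493 to 0.947). Primitive cells also had the highest median share of ribosomal protein UMIs of the 9 clusters, at 24.7%, and a ratio of 1.36 for the oxidative phosphorylation genes (1.35 to 1.38), and their part in the result was not tested.

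The ranges of single Primitive and Cap-Arterial cells overlapped in part. The 10 genes made up a median of 0.424% of a Primitive cell's UMIs, with a range from the 10th to the 90th percentile of 0.222% to 0.616%. In Cap-Arterial cells the median was 0.202% and this range 0.0894% to 0.316%. Each median lay outside the range of the other cluster.

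Tip and Capillary cells shared a high level of *Hk1*, at 91.2 and 93.7 CPM, 1.55-fold (lower bound 1.24) and 1.54-fold (lower bound 1.13) above the other labelled P6 cells. In each of these clusters *Hk1* was the 1 gene of 7 at least 1.5-fold higher, beside 4.92% of all genes in Tip and 16.2% in Capillary. Tip cells were also high in *Pkm*, at 1485 against 1063 CPM (ratio 1.40). *Pfkfb3* was at its highest in Tip cells, at 25.9 CPM from 29 UMIs (17.4 to 37.2). It was at its lowest in Proliferative cells, at 9.55 from 16 UMIs (5.46 to 15.5). Capillary cells, at 19.1 CPM (9.17 to 35.2), overlapped with Tip cells. Among P15 clusters with at least 20 labelled cells, Capillary stood highest, at 47.3 CPM from 5 UMIs, and Tip at 38.7 from 11 UMIs. These counts are under the minimum of 200 UMIs, so no fold is given.

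Proliferative cells had *Tpi1* at 310 CPM against 207 elsewhere (ratio 1.501, lower bound 1.36), the 1 gene of 7 past 1.5-fold, beside 7.77% of all genes. *Ldha* stood there at 757 against 585 (ratio 1.29). The sum had a ratio of 1.15 in Proliferative cells (1.12 to 1.18) and 0.961 among cells with 3000 to 6000 UMIs, so its direction turned with the depth of the cells compared. Proliferative cells were the deepest, with a median of 7954 UMIs.

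At the arterial end, *Pkm* and *Eno1* had the lowest ratios of the 7 genes, and *Ldha* was also low. *Pkm* stood at 663 CPM in Cap-Arterial (ratio 0.574, 0.526 to 0.625) and at 521 in Arterial cells (ratio 0.464, lower bound 0.378). *Eno1* stood at 330.1 in Cap-Arterial (ratio 0.591, 0.522 to 0.667) and at 278 in Arterial cells (ratio 0.512, lower bound 0.385). With *Tpi1* at 152 in Cap-Arterial (ratio 0.657), 3 of 7 genes were at least 1.5-fold lower in Cap-Arterial, beside 10.8% of all genes, and 2 of 7 in Arterial, beside 19.7%. *Ldha* stood at 438 in Cap-Arterial (394 to 485), its lowest of the 9 clusters, and at 471 in Arterial cells (380 to 577). In all labelled P6 cells *Ldha* stood at 615. *Aldoa* did not share this pattern, at 435 in Cap-Arterial (ratio 0.942, 0.844 to 1.05) and 476 in Arterial. Several marker lists stood apart in the same clusters. The dissociation response list stood at 864 CPM in Cap-Arterial and 1700 in Arterial cells against 132 in Primitive and up to 678 in the other clusters, and its part in the result was not tested. The glial list stood at 1592 and 1564 against 118 to 257, which was nearly all *Glul* (1591 and 1564), with *Gfap*, *Slc1a3* and *Dkk3* at 0 in both. The neuron list stood at 238 and 1189 against 1.06 to 11.5, which was nearly all *Stmn2* (234 and 1179), with *Tubb3* at 0 in both and *Elavl4* and *Syt1* at 0 in Arterial cells.

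Venous cells had 1 of 7 genes at least 1.5-fold lower (*Pgk1*, ratio 0.616), beside 13.2% of all genes. This *Pgk1* ratio rests on 5 UMIs in Venous cells, and its interval of 0.198 to 1.46 included 1. In Stalk and Cap-Venous none of the 7 passed 1.5-fold in either direction, beside 2.52% and 0.971% of all genes higher and 4.16% and 5.30% lower. Over the 63 pairs of a gene and a cluster, 5 were at least 1.5-fold higher (7.94%) and 6 lower (9.52%), beside 8.53% and 12.5% of all genes over the same clusters.

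**Figure D4:**
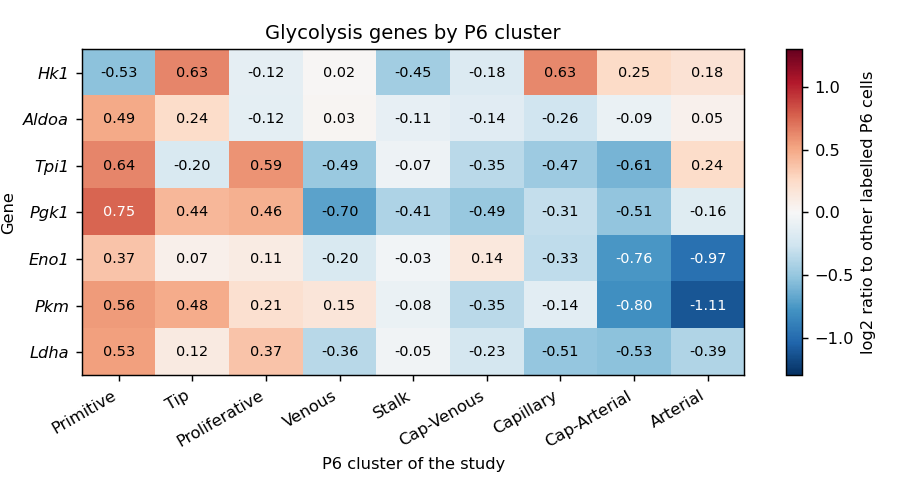
log2 ratio of CPM in each P6 cluster to the other labelled P6 cells, for the 7 glycolysis genes with at least 200 UMIs in labelled P6 cells (rows) and the 9 clusters (columns, by falling sum). Red is higher and blue lower. Primitive is red for 6 genes and blue for Hk1, and the deepest blue lies at Pkm and Eno1 in Arterial and Cap-Arterial.

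Isoenzyme shares also varied over the P6 clusters. *Ldha* supplied 98.0% of *Ldha* and *Ldhb* UMIs in Primitive cells (96.8 to 98.9%), 95.8% in Capillary, 91.4% in Cap-Venous (89.9 to 92.7%), 90.6% in Cap-Arterial (87.3 to 93.3%) and 87.7% in Arterial cells (79.9 to 93.3%). The Primitive interval did not overlap those of Stalk, Cap-Venous, Cap-Arterial, Venous and Arterial. For phosphofructokinase, *Pfkp* supplied 57.1% of UMIs in Tip cells (51.0 to 63.0%) and 32.5% in Cap-Arterial cells (24.5 to 41.5%), with *Pfkl* at 37.8% and 58.7%. *Aldoa* supplied at least 99.65% of the aldolase UMIs in every P6 cluster.

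At P15, 6 clusters had at least 20 labelled cells, and the order was another. Tip cells (46) stood at 3846 CPM, Primitive (36) at 3478, Cap-Venous (134) at 3453, Cap-Arterial (68) at 3313 and Stalk (85) at 3281, and among these the interval of neighbouring pairs held 1. Capillary cells (42) stood apart at 2213 (ratio to the other labelled P15 cells 0.637, 0.557 to 0.726). Of the 5 genes with at least 200 UMIs in labelled P15 cells, 3 were at least 1.5-fold lower in Capillary cells, beside 16.2% of all genes: *Ldha* at 349.9 against 771 CPM (ratio 0.454), *Eno1* at 388 against 675 (ratio 0.574) and *Pkm* at 681 against 1058 (ratio 0.644). Capillary cells also had the lowest median depth of these clusters, at 2268 UMIs. Tip was the 1 cluster whose interval lay above 1, at a ratio of 1.15 (1.08 to 1.23), and none of its 5 genes passed 1.5-fold, beside 6.71% of all genes higher.

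Within clusters, the P15 to P6 ratio of the sum ran from 1.56 in Cap-Arterial (1.44 to 1.69) through 1.25 in Cap-Venous (1.196 to 1.31), 1.13 in Stalk (1.06 to 1.2) and 1.07 in Tip (interval from 1 to 1.14) to 0.858 in Capillary (0.744 to 0.987) and 0.839 in Primitive (0.758 to 0.927). The median ratio of all genes with at least 200 UMIs over both ages was 0.814 in Capillary and 0.898 in Primitive cells, and lay from 0.991 to 1.04 in the other 4. Relative to that median, the sum stood at 1.57 in Cap-Arterial, 1.198 in Cap-Venous, 1.11 in Stalk, 1.07 in Tip and 0.934 in Primitive, and Capillary turned to 1.05. With size factors from genes with at least 20 UMIs at each age, Stalk and Tip turned to 0.968 and 0.944 and Capillary stood at 0.771. In Cap-Arterial, 3 of the 4 genes with at least 200 UMIs were at least 1.5-fold higher at P15, beside 12.2% of all genes.

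In Cap-Arterial cells *Ldha* stood at 438 CPM at P6 and 799 at P15 (ratio 1.83, 1.55 to 2.15). *Aldoa* stood at 435 and 730 (ratio 1.68, 1.41 to 1.99), *Eno1* at 330.1 and 499 (ratio 1.51, 1.23 to 1.85) and *Pkm* at 663 and 954 (ratio 1.44, 1.25 to 1.66). Cap-Arterial cells thus moved from next to last of 9 clusters at P6 to within the group of 5 at P15, in 68 labelled cells. In these cells *Glul* stood at 1591 CPM at P6 and 2807 at P15, while *Gfap*, *Slc1a3* and *Dkk3* of the glial list were at 0 at both ages. Their dissociation response list stood at 864 and 2269, and its part was not tested.

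*Aldoa* and *Pkm* parted in Cap-Venous, Stalk and Tip. *Aldoa* had ratios of 1.44 in Cap-Venous, 1.45 in Stalk and 1.46 in Tip, each with an interval above 1. *Pkm* had ratios of 1.04, 0.968 and 0.936 in the same clusters, each with an interval that included 1. In Primitive and Capillary cells the *Aldoa* ratios of 0.988 (0.767 to 1.26) and 1.18 (0.839 to 1.62) included 1. In Primitive cells *Ldha* stood at 850.4 CPM at P6 and 605 at P15 (ratio 0.712, 0.554 to 0.903) and *Pkm* at 1565 and 1259 (ratio 0.805, 0.678 to 0.949). In Capillary cells *Pkm* stood at 1014 and 681 (ratio 0.672, 0.518 to 0.861). The photoreceptor list stood at 976 CPM in P15 Primitive cells against 72.0 to 123 in the other 5 P15 clusters, and without the 3 Primitive cells above 0.1% of such UMIs the sum was 3435 in place of 3478.

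**Figure D5:**
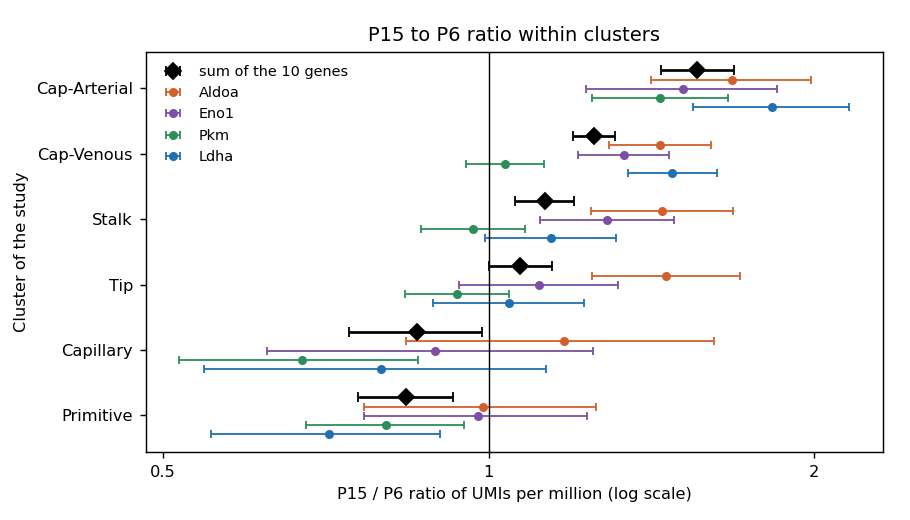
P15 to P6 ratio of CPM (log axis) within the 6 clusters with at least 20 labelled cells at both ages, for the sum of the 10 genes (black diamonds) and for Aldoa, Eno1, Pkm and Ldha (coloured circles), with 95% conditional binomial intervals. The sum lies at 1.56 in Cap-Arterial and at 0.839 in Primitive, and Aldoa lies above Pkm in all 6 clusters.

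Per cell, the 10 genes made up a median of 0.260% of UMIs at P6 and 0.318% at P15, and 8 cells of each library held no UMI of any of them. After thinning to 2000 UMIs, which left out 13 P6 and 172 P15 cells, 80.8% of P6 cells (78.6 to 82.8%) and 82.7% of P15 cells (80.7 to 84.6%) held a *Pkm* UMI, against 94.0% and 91.9% before thinning. *Ldha* was found in 62.0% and 71.7% of thinned cells (unthinned 84.6% and 85.5%), and *Eno1* in 61.7% and 71.3% (unthinned 84.8% and 85.7%). *Hk1* was found in 12.1% and 13.9% of thinned cells, with overlapping intervals. No cell type that lacks these genes was at hand to give the share that free RNA would produce.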

How the data were processed

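Single endothelial cells of P6 and P15 retinas were counted in 1 droplet library per age, from around 12000 cells per sample per the labels. The authors deposited unnormalized UMI counts, with genes in rows and barcodes in columns. Per the labels, the build was mm10 and Seurat 3.0 was used downstream. The aligner and annotation behind the counts were not given in the sources used here. Gene identifiers were named through GENCODE M21 (22695 of 22734 at P6, 21745 of 21785 at P15), and rows of 1 symbol were added.

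A cell passed if it had 200 to 3500 genes, a mitochondrial share of up to 5% and none of the markers *Hbb-bt*, *Neurod1* and *Cd63*, as read from the reporting summary. They held 7648189 UMIs at P6 and 7371443 at P15. The study's source data for its cluster map gave each labelled cell's cluster, where Primordial is the Primitive and Primordial-Proliferative the Proliferative cluster. Clusters needed 20 cells and folds 200 UMIs over both groups. No doublet caller was run, and cells holding *Xist* together with Y-linked UMIs (9 of the passing P6 and 12 of the passing P15 cells) were left out in an alternative.

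UMIs were summed over cells and scaled to 1000000 (CPM). The 95% intervals of levels are exact Poisson, those of shares are Clopper-Pearson, and ratios have the conditional binomial one. A count of 0 is bounded by 3 counts. With 1 library per age there was no test, no p-value and no replicate spread. Named were the 10 genes, fixed lists of pathway genes, HIF targets and cell markers, and the 10 genes most like the summed level by Pearson r of log2 values (pseudocount 1) over P6 clusters. The genes and lists were chosen with earlier results of these data known. The shares of the hexokinase isoenzymes are not reported here, and 1 gene of the pathway list was left out. Promoter windows are from RefSeq (GRCm38.p6). The steps were tested on simulated counts. Alternatives changed the cells, the depth window, the scaling, the weighting and the minimum counts. Python 3.11.15 with numpy 2.4.6, pandas 2.3.3, scipy 1.17.1 and matplotlib 3.10.9 was used.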

Additional observations from a re-analysis of the deposited data

Results flagged for a closer look

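Within clusters, the summed level of the glycolysis genes was lower at P15 than at P6 in Primitive cells (ratio 0.839) and Capillary cells (ratio 0.858), and higher in Stalk (1.13), Tip (1.07), Cap-Venous (1.25) and Cap-Arterial cells (1.56). The directions are opposite although each cluster was compared between the same libraries, which is why the result stands out. Relative to the median ratio of all genes in each cluster, Primitive stood at 0.934 and Capillary turned to 1.05, and no interval was computed for these values. With size factors from genes with at least 20 UMIs at each age, Stalk and Tip turned below 1, and Primitive and Capillary stayed below it. The directions in Capillary, Stalk and Tip thus depended on the scaling. Under these scalings Primitive stayed below 1, and Cap-Venous and Cap-Arterial stayed above it. The difference between clusters was not tested, since each age had 1 library, and the P15 values of Primitive and Capillary rest on 431 and 234 UMIs of the 10 genes in 36 and 42 labelled cells.

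Barcodes with a UMI of *Neurod1*, a gene of photoreceptor and amacrine precursors that the study used to remove cells, lay outside the comparisons and held far more of these transcripts. Their summed level was 8029 CPM at P6 (7841 to 8220, 98 barcodes) and 6778 at P15 (6349 to 7228, 17 barcodes), against 2936 and 3422 in the cells that passed. All barcodes with a *Neurod1* UMI held 9 UMIs of *Hk2* at P6 and 6 at P15, where all cells that passed held 2 and 1.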

How the results depend on the processing

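No paired analysis was possible because each age had 1 library. Values that left the 95% interval or turned direction follow by setting. With every barcode the P15 to P6 ratio of the sum was 0.959 and that of *Ldha* 0.888, and 1 gene was 1.5-fold lower (*Pgk1*, 0.546). With labelled cells only the ratio of the sum was 1.12, and 1 gene was 1.5-fold lower (*Pgk1*, 0.646). The ratio of the sum was 1.12 with P6 cluster weights and 1.23 as the median of the genes' ratios.

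Among cells with 3000 to 6000 UMIs, the ratio of the sum was 1.19. For P6 clusters it was 1.66 in Primitive, 1.12 in Tip, 0.976 in Capillary, 0.961 in Proliferative, 0.829 in Cap-Venous, 0.786 in Arterial and 0.730 in Cap-Arterial, and 10 pairs of gene and cluster were 1.5-fold lower in place of 6. For P15 Capillary it was 0.778. Within Stalk, Tip and Cap-Venous the P15 to P6 ratio was 1.21, 1.21 and 1.39.

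With size factors from genes with at least 20 UMIs in each group, the ratio of the sum was 1.07. For P6 clusters it was 1.51 in Primitive, 0.989 in Stalk, 0.766 in Capillary, 0.609 in Arterial and 0.619 in Cap-Arterial, with 10 pairs lower, and for P15 Primitive 0.863. Within clusters it was 0.732 in Primitive, 0.968 in Stalk, 0.944 in Tip, 1.10 in Cap-Venous and 1.39 in Cap-Arterial. With mitochondrial, ribosomal and haemoglobin genes left out of the total, it was 1.06 for the libraries, 1.53 for P6 Primitive, and within clusters 1.02 in Stalk, 0.984 in Tip, 1.12 in Cap-Venous and 1.42 in Cap-Arterial. Relative to the median ratio of all genes with at least 200 UMIs over both groups, it was 1.07 for the libraries, 1.72 for P6 Primitive and 1.003 for P6 Stalk, and within clusters 0.934 in Primitive and 1.05 in Capillary.

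Labelled cells that also passed gave 1.496 for P6 Primitive, 0.881 for P6 Venous and 8 pairs higher in place of 5. The mean per cell gave 1.54 for P6 Primitive, 1.07 for P15 Cap-Venous and 1.31 within Cap-Venous. Thinned to 3000 UMIs, the difference in shares of cells was 4.04 percentage points for *Pfkfb3* (2.46 at 2000) and 4.39 for *Eno1* (9.53 at 2000). The cause was not tested in any of these. Within-cluster alternatives and the comparison with the median of all genes were added after the data were seen. Besides these, 189 values lay inside the interval or, for counts, within 1.5-fold, and the other single-gene ratios that left their interval kept their direction. *Pgam1* and *Hk2* had too few UMIs for any fold, and P15 values by cluster cover labelled cells only.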

Other observations

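Over the 9 P6 clusters, the 10 genes with at least 500 UMIs whose log2 level followed the summed glycolysis level most closely were *Ppa1*, *Ndufc2*, *Eif2s2*, *Pfn1*, *Rpl5-ps1*, *2810025M15Rik*, *Sec61g*, *Gapdh*, *Glrx5* and *Tpm4*, with Pearson r from 0.995 to 0.931. Over the 6 P15 clusters *Ndufc2* (r = 0.914), *Sec61g* (0.931) and *Glrx5* (0.920) kept a high r, from 408 to 831 UMIs in labelled P15 cells. *Ppa1*, an inorganic pyrophosphatase, stood at -0.499, but from only 80 UMIs, so its r is uncertain. These r are descriptions over clusters of 1 library that share its depth and its total, and 8 of the 10 genes recurred when the minimum was 100 UMIs.

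The glycolysis genes did not all follow one another. Over the 21 pairs of the 7 genes with at least 200 UMIs, r over the 9 P6 clusters ran from -0.555 to 0.902 with a median of 0.518, and 15 pairs lay above 0. These 15 were the pairs without *Hk1* (0.246 to 0.902), while each pair with *Hk1* lay below 0 (-0.555 to -0.175). The summed level had an r of 0.817 with the log2 level of the oxidative phosphorylation genes and of 0.793 with the median ribosomal protein share of a cluster.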
